A study of Mus musculus with 9 samples.

Results

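Tef, which encodes thyrotroph embryonic factor, was examined together with 9 other genes of the circadian clock in testes of Tmem203 null mice. The members are the PAR bZIP activator genes Tef, Dbp and Hlf, the related repressor gene Nfil3, the period genes Per1, Per2 and Per3, the cryptochrome gene Cry1, and Nr1d1 and Nr1d2, which encode the REV-ERB nuclear receptors. Every probe set that the platform annotation assigned to 1 of these genes alone was taken, which gave 22 probe sets of 10 genes. The arrays held 45101 probe sets, of which 34945 were assigned to a single gene, for 18193 genes. The list was selected on the signal of Tef in null minus WT testes, which was already known to be lower, so the changes and adjusted p-values below describe these arrays and are not independent support for a change.

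The samples were 5 testis RNA preparations of Tmem203 null mice and 4 of wild type (WT) mice, all on the C57BL/6J background and 24 weeks old. The null allele is a germline deletion, present in every cell of the animal, in which the start codon of Tmem203 and part of its 5′ untranslated region were replaced. Tmem203 encodes a membrane protein of the endoplasmic reticulum, and the study compared the genotypes to find transcripts that change when it is lost. Left and right testes were collected separately, and whether each array is another animal is not certain. A figure legend of the paper speaks of 5 null and wild type mice without tying arrays to animals. If some arrays share an animal, the spread that the p-values rest on is partly within animals. The hour of the day at which the testes were taken, which bears on clock transcripts in many tissues, was not given in the sources used here.

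RNA of each sample was read on its own Affymetrix array, on which a probe set is a group of short oligonucleotides summarised into 1 signal, and all values below are log2 signals after Robust Multichip Average (RMA). The array medians lay between 6.96 and 7.05, and arrays correlated with each other at 0.993 to 0.998. WT replicate 3 stood farthest apart, with a correlation of 0.996 to its nearest array. The Tmem203 probe set gave 9.10, 9.13, 9.13, 9.06 and 9.10 in null testes, against 9.67, 9.91, 9.93 and 9.71 in WT testes, a change of -0.70 (standard error 0.06). Whether this probe set reads the deleted bases is not known here. Markers of elongating spermatids were high in every sample, with a mean over 7 genes, each by its brightest probe set, of 14.29 to 14.34 in null and 14.31 to 14.33 in WT testes. Null and WT testes were compared with limma over 45037 probe sets, and p-values were adjusted by the Benjamini-Hochberg method over all of them. As in the methods of the study, a call required an adjusted p under 0.05, a change of 1.5-fold or more, 1 array or more with a signal of 32 or above (5 on the log2 scale, the detection threshold), and annotation to a single gene.

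The circadian clock is a loop of transcription factors. CLOCK and BMAL1 (encoded by Arntl) activate genes through E-boxes, among them the Per and Cry genes, whose proteins then inhibit CLOCK and BMAL1. REV-ERB receptors repress Arntl and other genes through elements that ROR receptors activate. The PAR bZIP factors TEF, DBP and HLF are output factors of this loop that activate genes through D-boxes, and NFIL3 represses through the same sites. In mouse testis, clock transcripts have been described as nearly constant through the day, unlike those of the liver.

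Of the 22 probe sets, all of which were detected, 2 were lower in null testes at an adjusted p under 0.05 and 0 were higher. They read Tef and Per3. Over all probe sets tested, 3.36% were lower and 4.12% higher at this threshold (1511 lower and 1856 higher, but 1884 lower and 1381 higher once each array was centred on its median). At the thresholds of the methods, 1 probe set, of Tef, was called lower and 0 were called higher, beside 0.469% called lower and 0.635% called higher over all probe sets. These shares are over 45037 probe sets, some of which could not be called, as 35145 were detected and 34945 assigned to a single gene. Every member probe set met both conditions. In 3 probe sets (of Tef, Per2 and Per3) the highest null sample was below the lowest WT sample, and in 0 was the lowest null sample above the highest WT sample, where 6.07% and 5.68% of all probe sets did so. The other 19 overlapped between the genotypes. The median change was 0.037 over the members and -0.014 over all probe sets tested, with 13 positive and 9 negative values, and 20 of the 22 changed by less than 0.30 in size. The 95% interval of the change lay within 1.5-fold either way for 19 probe sets. An unadjusted p under 0.05 was reached by 5 probe sets, of which 1, of Hlf, was higher, and the methods' t-test with the same adjustment also passed 0 as higher.

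**Figure D1:**
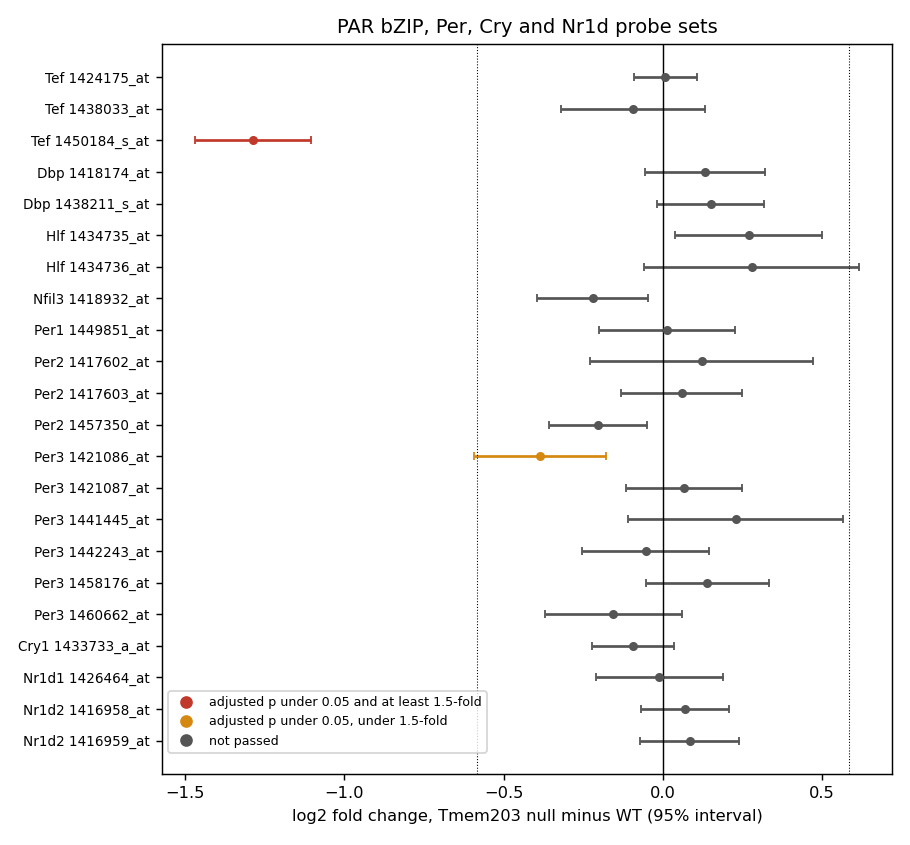
Change of each of the 22 probe sets of Tef and the clock genes, as the log2 signal in Tmem203 null minus WT testes (5 against 4 arrays), on the x axis. Points are limma estimates, bars are 95% intervals and dotted lines mark 1.5-fold. Tef 1450184_s_at lies alone at -1.29, Per3 1421086_at follows at -0.39, and the other 20 lie between -0.22 and 0.28.

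Tef was read by 3 probe sets, and 1 of them differed strongly between the genotypes. Probe set 1450184_s_at gave 8.07, 8.33, 7.98, 8.14 and 8.28 in null testes, against 9.40, 9.59, 9.43 and 9.38 in WT testes. All null samples were below all WT samples, and the gap between the groups was wider than either group. The means were 8.16 ± 0.15 (SD, n = 5) in null and 9.45 ± 0.10 (SD, n = 4) in WT testes, a change of -1.29 (standard error 0.08, 95% interval -1.47 to -1.11), which is 2.44-fold lower (adjusted p = 4.76e-05 from limma). With any 1 array left out the change lay between -1.33 and -1.24, with adjusted p-values of 1.44e-04 to 3.31e-04. In whole testis, fewer cells that carry a transcript and less of it in each cell cannot be told apart.

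The other Tef probe sets did not share this difference. Probe set 1424175_at gave 10.71, 10.70, 10.73, 10.73 and 10.71 in null testes, against 10.70, 10.66, 10.75 and 10.71 in WT testes. These samples were level with each other in both genotypes. The change was 0.0083 (standard error 0.04, 95% interval -0.09 to 0.11, adjusted p = 0.933 from limma), and the spread within groups, an SD of 0.0276, was at percentile 1.32 of the detected probe sets. Probe set 1438033_at gave 7.84, 7.82, 7.64, 8.06 and 7.90 in null testes, against 8.07, 8.11, 7.70 and 7.91 in WT testes. The groups overlapped over most of their range, and the change was -0.094 (95% interval -0.32 to 0.13, adjusted p = 0.624 from limma).

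**Figure D2:**
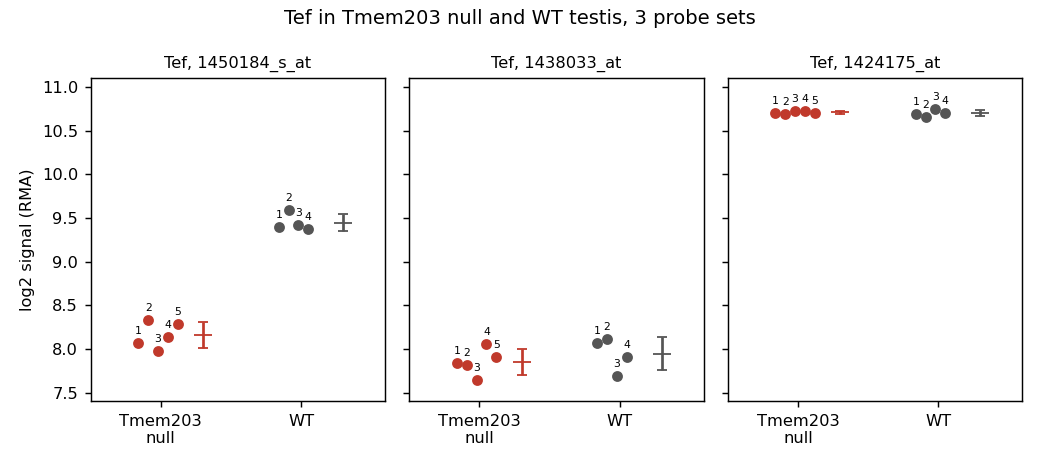
Log2 signal (RMA) of the 3 Tef probe sets in 5 Tmem203 null and 4 WT testis samples. Numbers are replicates, and the horizontal line and bar beside the points are the mean and SD of a group. The null samples of 1450184_s_at lie between 7.98 and 8.33, below the WT samples at 9.38 to 9.59, and on the other probe sets the groups overlap.

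Because the 3 probe sets were read from the same RNA on the same array, their difference was also taken within each sample. The signal of 1450184_s_at minus that of 1424175_at was -2.64, -2.36, -2.75, -2.59 and -2.42 in null testes, against -1.30, -1.08, -1.33 and -1.33 in WT testes. The groups did not overlap, and their means differed by -1.30. Set against 1438033_at, the same difference was 0.23, 0.52, 0.33, 0.080 and 0.38 in null testes and 1.33, 1.48, 1.73 and 1.47 in WT testes, and the means differed by -1.19. The probe sets that the annotation gives to Tef therefore changed unequally. In the annotation, 1450184_s_at was designed from a RefSeq transcript of Tef and the other 2 were not. The suffix _s_at marks probes that may also match other transcripts. Which part of the Tef transcripts each probe set reads was not analysed here.

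RefSeq places 2 start sites of Tef on chromosome 15, 8741 bases apart, and the windows from 250 bases before to 50 bases after each are shown because Tef was the called gene and both hold an E-box. The sequences are from RefSeq, build GRCm38.p6, 5′ to 3′ on the plus strand, and capitals mark the E-box CACGTG, which begins 127 bases upstream of the first start site and 138 bases upstream of the second.
Tef first start site, chr15:81802423-81802722: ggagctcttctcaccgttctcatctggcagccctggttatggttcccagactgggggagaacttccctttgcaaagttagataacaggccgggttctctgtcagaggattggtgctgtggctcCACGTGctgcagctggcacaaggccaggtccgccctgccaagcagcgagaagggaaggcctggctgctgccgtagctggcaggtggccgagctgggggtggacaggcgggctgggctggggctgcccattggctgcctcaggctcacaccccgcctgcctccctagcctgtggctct
Tef second start site, chr15:81811164-81811463: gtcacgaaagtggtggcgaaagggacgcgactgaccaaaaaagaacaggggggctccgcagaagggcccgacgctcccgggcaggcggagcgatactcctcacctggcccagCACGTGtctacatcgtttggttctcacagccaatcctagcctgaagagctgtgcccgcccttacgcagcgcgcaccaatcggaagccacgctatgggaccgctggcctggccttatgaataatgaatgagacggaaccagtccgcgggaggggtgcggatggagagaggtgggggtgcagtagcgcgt
Both strands were also searched for the D-box TTATGNAA (TTNCATAA on the other strand), the core AGGTCA of the ROR and REV-ERB element (TGACCT on the other strand) and the cAMP response element TGACGTCA, and none of these letters was in either Tef window. Among all 32851 RefSeq promoter windows of this length, 7.15% held the E-box, 3.38% the D-box, 16.3% the ROR and REV-ERB core and 1.79% the cAMP response element. Of the 11 windows of 9 member genes, 4 held the E-box (both of Tef and 1 each of Per1 and Cry1), 2 the D-box (Per1 and Per3), 3 the ROR and REV-ERB core (Nfil3, Per1 and Nr1d2) and 1 the cAMP response element (Hlf). Such a match is a run of letters and no evidence of binding.

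Dbp and Hlf, the other PAR bZIP activators, did not pass the test, and all 4 of their probe sets had a positive change, the opposite sign to that of Tef 1450184_s_at. Dbp, whose transcript has one of the widest daily swings in many tissues, gave 9.70, 9.54, 9.46, 9.54 and 9.46 on 1438211_s_at in null testes, against 9.34, 9.48, 9.22 and 9.52 in WT testes. Null replicates 1, 2 and 4 were above every WT sample, and null replicates 3 and 5 lay among the WT samples. The change was 0.15 (standard error 0.08, 95% interval -0.02 to 0.32, adjusted p = 0.271 from limma), and that of the second Dbp probe set, 1418174_at, was 0.13.

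Hlf, first known from a leukaemia fusion gene, gave 7.08, 6.94, 7.11, 7.21 and 7.06 on 1434735_at in null testes, against 6.73, 6.57, 7.14 and 6.80 in WT testes. Every null sample was above WT replicates 1, 2 and 4, whereas WT replicate 3 lay among the null samples. The change was 0.27 (standard error 0.10, 95% interval 0.04 to 0.50, adjusted p = 0.151 from limma). Without WT replicate 3, the array that stood farthest apart, it was 0.38 with an adjusted p of 0.0164 (limma), and with all arrays kept but weighted it was 0.33 with an adjusted p of 0.0358. Hlf was under 1.5-fold in each of these fits, so it was not called. The second Hlf probe set, 1434736_at, had a like change of 0.28 with a wider interval (-0.06 to 0.62, adjusted p = 0.306 from limma) and overlapping groups.

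Nfil3 encodes the repressor that competes with the PAR bZIP factors for D-boxes. Its single probe set, 1418932_at, gave 8.13, 7.76, 8.01, 7.92 and 7.99 in null testes, against 8.16, 8.09, 8.15 and 8.33 in WT testes. The groups met only at null replicate 1, which lay above WT replicate 2. The change was -0.22 (standard error 0.08, 95% interval -0.40 to -0.05), and it did not pass (adjusted p = 0.125 from limma).

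The period genes encode inhibitors of CLOCK and BMAL1 and were read by 10 probe sets, of which 1, of Per3, passed the test. Per3 1421086_at gave 5.06, 5.33, 5.33, 5.22 and 5.11 in null testes, against 5.40, 5.55, 5.60 and 5.84 in WT testes. All null samples were below all WT samples, by little, and both groups were close to the detection threshold of 5. The means were 5.21 ± 0.12 (SD, n = 5) in null and 5.60 ± 0.18 (SD, n = 4) in WT testes, a change of -0.39 (standard error 0.09, 95% interval -0.59 to -0.18, adjusted p = 0.0338 from limma), which is 1.31-fold lower and under the 1.5-fold of the methods. The adjusted p went above 0.05 (0.0569 to 0.0826) when null replicate 1, 4 or 5 or WT replicate 2, 3 or 4 was left out, while the change lay between -0.45 and -0.30 with any 1 array left out.

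The other 5 Per3 probe sets did not pass. Probe set 1421087_at, the brightest of them, gave 9.10, 9.06, 9.10, 9.06 and 9.07 in null testes, against 9.20, 8.88, 8.81 and 9.15 in WT testes. The null samples lay inside the range of the WT samples, and the change was 0.068 (95% interval -0.12 to 0.25, adjusted p = 0.667 from limma). The remaining changes were 0.23 (1441445_at), -0.054 (1442243_at), 0.14 (1458176_at) and -0.16 (1460662_at), with overlapping groups throughout. Probe set 1460662_at counted as detected only through WT replicate 3, at 5.17, and every other array was below the threshold. The sign of Per3 therefore depended on the probe set read.

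Per1, which can also be induced as an immediate early gene in other tissues, gave 9.85, 10.17, 10.05, 10.09 and 9.99 on 1449851_at in null testes, against 10.12, 10.12, 9.72 and 10.11 in WT testes. WT replicate 3 was the lowest of the 9 samples and the others overlapped. The change was 0.013 (standard error 0.10, 95% interval -0.20 to 0.23, adjusted p = 0.953 from limma), and without WT replicate 3 it was -0.085.

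Per2 was read by 3 probe sets with unequal signs. Probe set 1457350_at gave 5.44, 5.28, 5.37, 5.23 and 5.44 in null testes, against 5.46, 5.64, 5.66 and 5.48 in WT testes. No null sample reached the lowest WT sample, but the gap was narrow and both groups were close to the detection threshold of 5. The change of -0.20 did not pass (standard error 0.07, 95% interval -0.36 to -0.05, adjusted p = 0.106 from limma). The brighter probe set 1417602_at gave 7.27, 7.39, 7.18, 7.80 and 7.38 in null testes, against 7.62, 6.87, 7.21 and 7.42 in WT testes. Its groups overlapped and the change was 0.12 (95% interval -0.23 to 0.47), with a spread within groups at percentile 95.4 of the detected probe sets. On 1417603_at the change was 0.060.

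Promoter windows of Per3 and Per1 are shown because they are the member windows with a D-box, the site that TEF, DBP, HLF and NFIL3 bind. Both are RefSeq sequences of build GRCm38.p6, written 5′ to 3′ on the strand of the gene. Capitals mark in Per3 the D-box TTATGTAA, which begins 205 and 158 bases upstream of the start site, and in Per1 the E-box CACGTG, the ROR and REV-ERB core TGACCT and the D-box TTATGCAA, which begin 166, 137 and 24 bases upstream. The capitals do not overlap each other.
Per3, chr4:151044616-151044915, minus strand: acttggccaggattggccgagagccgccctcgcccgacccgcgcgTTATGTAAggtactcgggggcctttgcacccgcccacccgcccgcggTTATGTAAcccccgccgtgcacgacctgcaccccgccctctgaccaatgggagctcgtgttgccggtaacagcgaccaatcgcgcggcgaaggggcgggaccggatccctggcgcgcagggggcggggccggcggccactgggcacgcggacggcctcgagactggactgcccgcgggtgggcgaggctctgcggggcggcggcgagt
Per1 first start site, chr11:69098699-69098998, plus strand: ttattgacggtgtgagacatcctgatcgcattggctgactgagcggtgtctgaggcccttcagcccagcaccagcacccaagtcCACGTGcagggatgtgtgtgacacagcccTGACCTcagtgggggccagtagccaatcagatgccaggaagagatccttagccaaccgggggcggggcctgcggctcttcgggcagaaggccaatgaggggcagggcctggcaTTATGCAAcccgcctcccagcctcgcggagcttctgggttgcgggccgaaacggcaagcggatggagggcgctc
The second Per1 window held none of the searched motifs, and Per2 had no window in the table used.

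Cry1, which encodes the partner of the PER proteins, did not pass the test. Probe set 1433733_a_at gave 11.61, 11.63, 11.62, 11.62 and 11.48 in null testes, against 11.64, 11.63, 11.66 and 11.81 in WT testes. Null replicate 5 was below the other null samples and WT replicate 4 above the other WT samples, and the others were level with each other. The change was -0.092 (standard error 0.06, 95% interval -0.22 to 0.04, adjusted p = 0.377 from limma).

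The REV-ERB genes did not pass the test. Nr1d1 gave 9.39, 9.32, 9.26, 9.13 and 9.41 on 1426464_at in null testes, against 9.33, 9.52, 9.31 and 9.10 in WT testes, and the groups covered nearly the same range. Its change was -0.011 (standard error 0.09, 95% interval -0.21 to 0.19, adjusted p = 0.957 from limma). In RefSeq the interval of Nr1d1 overlaps that of its neighbour Thra, and whether the probe set lies in the overlap was not analysed here. Nr1d2 gave 10.80, 10.81, 10.73, 10.87 and 10.91 on 1416958_at in null testes, against 10.77, 10.63, 10.75 and 10.88 in WT testes, again with overlapping groups. The change was 0.070 there (adjusted p = 0.541 from limma) and 0.085 on 1416959_at (95% interval -0.07 to 0.24).

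**Figure D3:**
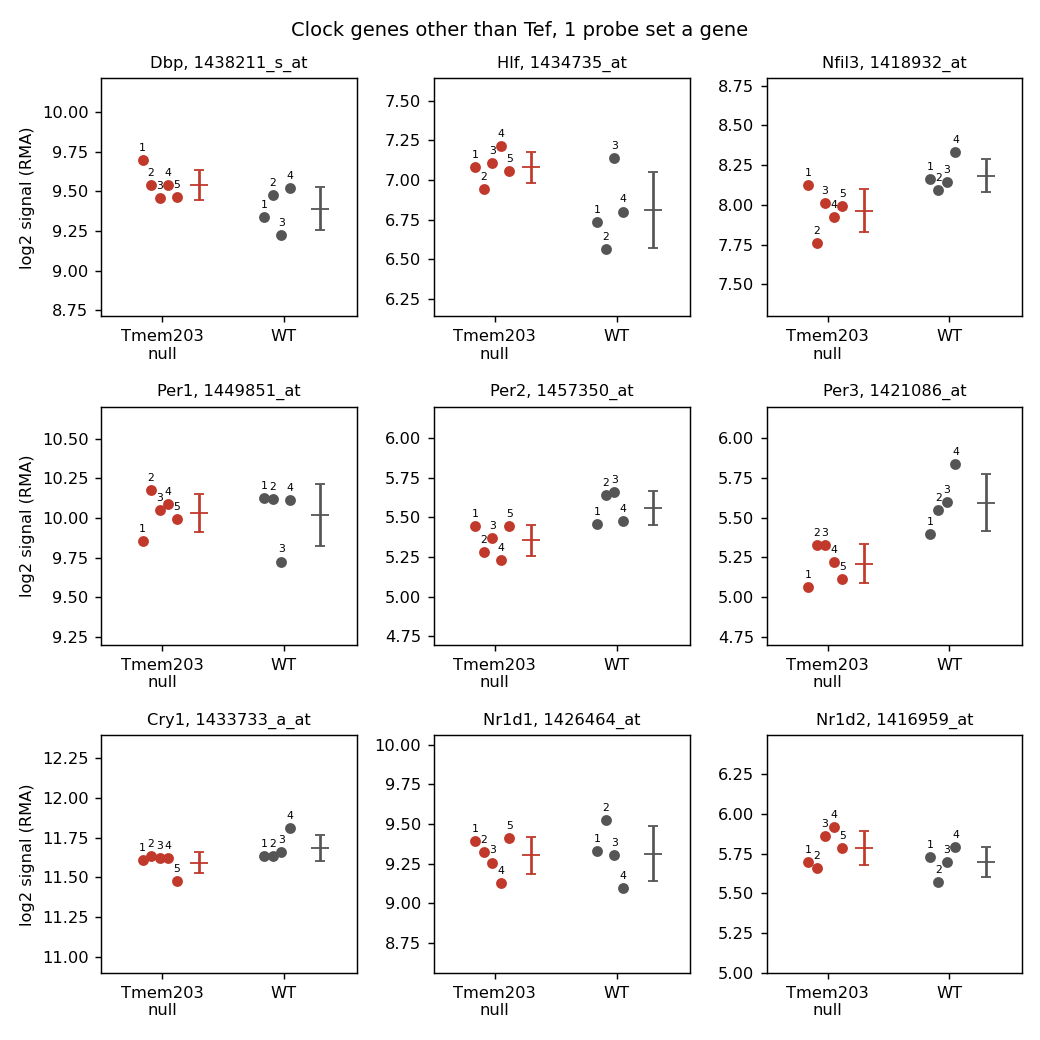
Log2 signal (RMA) of the 9 clock genes other than Tef, each by its probe set with the smallest p, in 5 Tmem203 null and 4 WT testis samples. Numbers are replicates, and the line and bar are the mean and SD of a group. Each panel has its own range of the y axis, all of the same height. The groups are apart in Per2 and Per3 only, both close to the detection threshold.

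The activators and further regulators of the clock were read through a list of 20 genes, of which 18 had a single-gene probe set and 15 a detected one. Read by the probe set with the smallest p, 3 were higher and 1 was lower in null testes at an adjusted p under 0.05, and 11 did not pass. Read the same way, 8.03% of the 16180 detected genes were higher and 6.82% lower. The median change was -0.035 over the 15 genes and -0.031 over all detected genes. Bhlhe40 encodes a repressor at E-boxes, and with 9.51, 8.80, 9.31, 9.20 and 9.35 in null testes, against 8.62, 8.15, 8.26 and 8.49 in WT testes, it was the 1 gene of this list past 1.5-fold. Every null sample was above every WT sample, and the change was 0.85 (standard error 0.14, adjusted p = 0.00637 from limma). Gsk3b encodes a kinase that phosphorylates clock proteins among many others. It gave 12.04 to 12.12 in null testes (median 12.05) and 12.34 to 12.51 in WT testes (median 12.38) on 1451020_at, a change of -0.33 (adjusted p = 0.00491 from limma). Its probe set 1437001_at changed by 0.32 (adjusted p = 0.0338 from limma), so its probe sets passed in opposite directions. The remaining Gsk3b changes were also positive but did not pass, at 0.37 (1454958_at), 0.24 (1434439_at), 0.087 (1439931_at) and 0.085 (1439949_at). Nono, whose protein binds PER proteins, had a change of 0.34 (adjusted p = 0.0358 from limma).

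Of the same list, 3 genes were picked after their values were seen. Csnk1d, a kinase of the PER proteins, is the third that was higher, with a change of 0.21 on 1449932_at (adjusted p = 0.0402 from limma). Its other probe sets did not pass, with changes of 0.22 (1415825_s_at), 0.20 (1437690_x_at), 0.030 (1418889_a_at) and 0.013 (1456727_a_at). Arntl, the target that REV-ERB receptors repress, gave 8.01, 7.93, 8.10, 7.73 and 8.01 in null testes, against 8.10, 7.97, 8.01 and 8.09 in WT testes, and these overlapped (change -0.088, adjusted p = 0.526 from limma). Its partner Clock gave 8.42, 8.29, 8.30, 8.34 and 8.46 in null testes, against 8.13, 8.01, 7.80 and 8.26 in WT testes. Every null sample of Clock was above every WT sample, and the change of 0.31 missed the threshold (adjusted p = 0.0588 from limma).

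Genes that PAR bZIP factors or NFIL3 regulate in mouse liver, brain and other tissues were read through a list of 11, of which 8 had a single-gene probe set and 5 a detected one. None of the 5 passed the test in either direction (limma, 0 higher and 0 lower, 1 with an unadjusted p under 0.05), and their median change was 0.017. That gene was Pdxk, which makes the active form of vitamin B6 and depends on PAR bZIP factors in mouse brain. It gave 6.82, 7.03, 6.75, 6.93 and 6.79 on 1427931_s_at in null testes, against 7.14, 7.21, 7.08 and 6.99 in WT testes. Null replicate 2 lay above WT replicate 4 and the change was -0.24 (adjusted p = 0.0723 from limma), while its other probe sets changed by 0.18 and -0.052. Fgf21, a liver hormone gene, changed by 0.083 and Alas1, the rate-limiting enzyme of haem synthesis, by 0.045, neither past the test.

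Since Per1 can be induced directly by signals outside the clock, 16 immediate early and glucocorticoid induced genes were read as well, and all 16 were detected. In null testes 4 were higher, 0 were lower and 12 did not pass, beside the 8.03% higher and 6.82% lower over all detected genes. Their median change was 0.19, against -0.031 over all detected genes. Fos (-0.30), Nr4a1 (-0.070) and Dusp1 (-0.057), named after their values were seen, had a negative change and did not pass. The remaining genes of the list had a positive change. Fkbp5 encodes a co-chaperone of the glucocorticoid receptor. Its signals were 10.47, 10.28, 10.32, 10.25 and 10.34 in null testes, against 10.06, 9.95, 9.92 and 9.81 in WT testes, a change of 0.40 with no overlap (standard error 0.07, adjusted p = 0.00599 from limma). Sgk1, a kinase gene induced by glucocorticoids, changed by 0.50 (adjusted p = 0.00768 from limma) and Jun, a subunit of the AP-1 factor, by 0.60 (adjusted p = 0.0150 from limma). Egr2, the fourth, was named after its values were seen and changed by 0.60 (adjusted p = 0.0340 from limma). A second detected probe set of Fkbp5, Jun and Egr2 had a smaller positive change, of 0.16, 0.31 and 0.49 in that order. None of these passed (adjusted p = 0.234, 0.0657 and 0.0554 from limma).

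**Figure D4:**
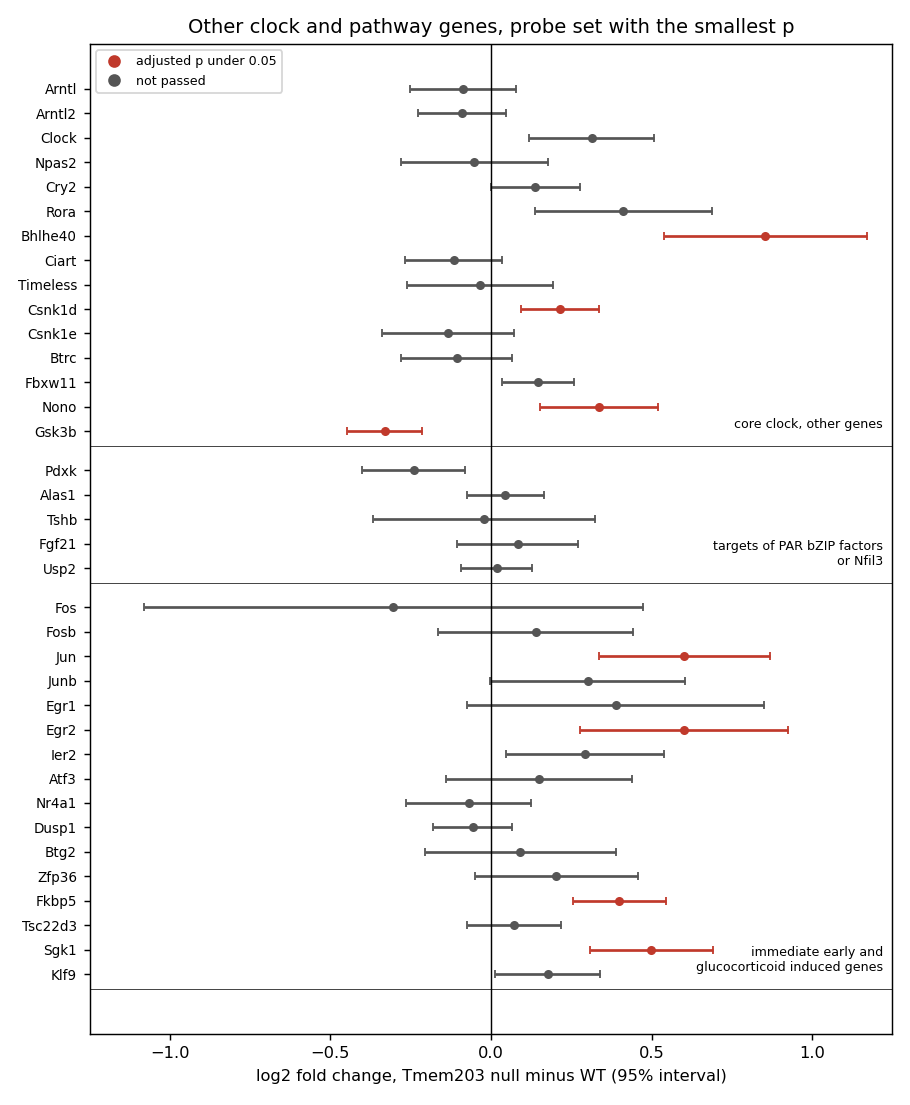
Change of the detected genes of the 3 lists (other clock genes, targets of PAR bZIP factors or NFIL3, immediate early and glucocorticoid induced genes), as the log2 signal in Tmem203 null minus WT testes on the x axis, each by its probe set with the smallest p. Points are limma estimates and bars 95% intervals from 5 null and 4 WT arrays. Bhlhe40 has the largest positive change at 0.85, and Gsk3b is the only gene with a passed negative change, at -0.33.

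Markers of somatic cells of the testis also differed between the genotypes. By the probe set with the smallest p, 6 of 8 Sertoli cell markers were higher in null testes, where 8.03% of all detected genes were higher and 6.82% lower. With each gene read by its brightest probe set, 6 of 8 were higher as well, and the mean level of the list lay between 10.50 and 10.62 in null and between 10.24 and 10.38 in WT testes. Of 4 Leydig cell markers read, 2 were higher by the probe set with the smallest p and 1 by the brightest, with a mean level over the brightest of 11.82 to 12.30 in null and 11.36 to 12.02 in WT testes, which overlapped, and Insl3, Lhcgr and Hsd3b6 had no detected single-gene probe set. By the smallest p, among macrophage markers 1 of 5 was higher and among those of spermatogonia 1 of 6. Of the germ cell markers after these stages, 0 of 8 for spermatocytes, 0 of 6 for round spermatids and 0 of 7 for elongating spermatids passed, and none of 5 endothelial and 5 peritubular markers did (limma). The elongating spermatid markers had very high mean signals, 13.95 to 14.67. Whether such signals would show a loss of cells was not tested. By DNA staining, the paper reported a large reduction of condensed haploid cells in testes of older null mice, and no difference in young ones. By microscopy of older null testes, it described the reduction of late spermatids as subtle. The 3′ minus 5′ signal of the Gapdh control, a sign of RNA quality, averaged 0.85 ± 0.04 (SD, n = 5) in null and 0.93 ± 0.01 (SD, n = 4) in WT testes (two-sided exact permutation p = 0.0159, the smallest p that 5 against 4 samples allow). For beta-actin it averaged 0.58 ± 0.04 (SD, n = 5) in null and 0.60 ± 0.04 (SD, n = 4) in WT testes (two-sided exact permutation p = 0.365). The part of these markers and of RNA quality in the change of Tef, Per3, Bhlhe40 and the immediate early genes was not tested.

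The genes whose signals over the 9 arrays were most like those of Tef 1450184_s_at were Ephx4 (Pearson r = 0.992), Cd164l2 (0.991), 4930405D01Rik (0.991), Parvg (0.986) and Uggt2 (0.985). The arrays fall into 2 genotypes, and each of the 5 genes was lower in null testes, with changes of -0.80, -1.93, -0.59, -0.96 and -0.36 in that order. None of the 5 is a member of the clock lists.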

How the data were processed

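Testis RNA of 5 Tmem203 null and 4 WT samples was measured on Affymetrix mouse expression arrays, 1 array a sample. The authors checked scan quality and applied RMA (background adjustment, quantile normalization and probe set summary), and deposited the resulting log2 signals. limma is named, without a version, in the submitters' processing notes. The background step and scan batches could not be varied or tested here.

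From these values, the null minus WT contrast was fitted by lmFit and eBayes of limma (version 3.58.1, R version 4.3.3) to 45037 probe sets, without the 64 control probe sets of the manufacturer, with Benjamini-Hochberg adjustment. Calls used the thresholds of the methods given in the report. Probe sets took their gene symbols from the platform annotation, and 34741 of 34945 single-gene probe sets were matched to RefSeq (GRCm38.p6) through Entrez identifiers. Promoter windows and motif matches were read with Python 3.11.15 from RefSeq sequences of the same build, and 9 of the 10 member genes had a window.

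The members and the gene lists were chosen with earlier results of these data known. The text names every member with all its probe sets, the 3 detected genes of each list with the smallest p, the 5 genes most like the called member, and Tmem203, and marks genes outside this rule. A gene outside the members is read by the probe set that has the smallest p, except that mean levels of marker lists use the brightest probe set of each gene. The procedure was tested on simulated data with known changes. As alternatives, arrays were median centred or quantile normalized again, weighted, or left out in turn, the variance trend and the replicate number (as a block) were modelled, the detection filter was changed, _x_at and _s_at probe sets were dropped, genes were read by their brightest probe set, and the test was replaced by limma's treat, a 2-fold threshold, the methods' t-test or an exact permutation test of single values. With 9 arrays in all, the sample number sets the precision.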

Additional observations from a re-analysis of the deposited data

Results flagged for a closer look

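A single sample stood apart from the rest of its genotype in 5 of 66 groups tested by the gap between the extreme sample and its neighbour, and chance gives about 1 in 20. Per1 1449851_at was at 9.72 in WT replicate 3, with the other WT samples at 10.11 to 10.12. On Per3 1460662_at the same sample was at 5.17, with the other WT samples at 4.80 to 4.85. Cry1 1433733_a_at was at 11.48 in null replicate 5, with the other null samples at 11.61 to 11.63. Per3 1442243_at was at 6.77 in null replicate 1, with the other null samples at 7.06 to 7.15. Fgf21 1422916_at was at 6.16 in null replicate 5 and at 5.98 in each of the other null samples. None of these probe sets passed the test between the genotypes (limma).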

How the results depend on the processing

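When each gene was read by its brightest probe set in place of that with the smallest p, the change was 0.0083 for Tef, 0.12 for Per2 and 0.068 for Per3, each opposite in sign to the value by the smallest p. Under the remaining alternatives Tef kept its direction and its call, except that no member was called (0 lower) without the _x_at and _s_at probe sets, which removes 1450184_s_at. The count of lower member probe sets, 2, was 1 with array weights, without the _x_at and _s_at probe sets, with the replicate block, with limma's treat against 1.5-fold and with the methods' t-test after Benjamini-Hochberg adjustment, and 1 to 2 with each array left out. The count of higher members was 1 with array weights and 0 to 1 with each array left out. That probe set is Hlf 1434735_at. For Per3 1421086_at the adjusted p was 0.0512 with array weights, 0.0886 with the replicate block and 0.0857 with the methods' t-test, and Hlf 1434735_at had 0.0358 with array weights (limma).

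Per1, near 0 throughout, was at -0.019 after median centring, -0.041 with array weights and -0.085 to 0.058 with each array left out, and Nr1d1 at 0.0048 with array weights and -0.084 to 0.059 with each array left out. Of the other clock and pathway genes, 7 were higher and 1 lower. The higher count was 4 with the replicate block, 0 with treat, 4 with the methods' t-test after adjustment and 4 to 6 with each array left out. The lower count was 2 after median centring and after a further quantile normalization, 0 with the replicate block, 0 with treat and 1 to 2 with each array left out. Over all probe sets, 1856 were higher and 1511 lower, 1381 and 1884 after median centring, 645 and 529 with the replicate block, 11 and 33 with treat, and 998 to 2173 and 910 to 1492 with each array left out, and the methods' t-test after adjustment gave 971 higher. The median change of all probe sets was -0.014, and -0.046 after median centring.

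Whether replicate numbers pair the samples was not given in the labels. Deviations of same-numbered samples correlated at -0.073, 0.10, -0.035 and -0.00099 over 35145 probe sets. Samples of unlike number were not compared, so these values cannot settle pairing. The block left null replicate 5 without a partner. In exact permutation tests of single values Nfil3 and Cry1 reached an unadjusted p of 0.0317. By the same test Tef 1450184_s_at, Per2 1457350_at and Per3 1421086_at reached 0.0159, the smallest p that 5 against 4 samples allow. The cause of these differences was not tested.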
